A study of Mus musculus with 6 samples.

Results

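The genes described here are the core writers, erasers and readers of N6-methyladenosine (m6A), a methyl mark on adenosines inside mRNA. They were chosen by symbol: the methyltransferase complex genes Mettl3, Mettl14 and Wtap, the demethylase genes Alkbh5 and Fto, and the YTH-domain readers Ythdf1, Ythdf2, Ythdf3, Ythdc1 and Ythdc2. All 10 symbols were found among the 54532 genes of the deposited table, and all 10 passed the filter for testing, a mean of at least 1 FPKM (fragments assigned to the gene, relative to its length and to library depth) over the libraries. RNA-seq had been carried out on cultured mouse bone marrow-derived macrophages, the progeny of marrow precursors, labelled NSUN2-KO or NC, with 3 libraries in each group. NSUN2 is a methyltransferase that places a different mark, 5-methylcytosine, on tRNAs and other RNAs. Both groups had been brought to the inflammatory M1 state with LPS and IFN-γ, so no unstimulated level was measured. The labels give neither the strain, age or sex of the animals, nor the knockout allele, nor the meaning of NC, nor which animal each library came from, so p-values measure the spread between these libraries.

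In the cell, METTL3 carries the catalytic activity of the m6A writer, METTL14 holds the RNA substrate beside it, and WTAP keeps the pair in nuclear speckles. ALKBH5 and FTO are iron- and oxoglutarate-dependent dioxygenases that remove methyl groups from adenosine. YTHDF1, YTHDF2 and YTHDF3 bind the mark in the cytoplasm and are best known for directing decay of marked mRNA, YTHDC1 binds it in the nucleus, where it acts in splicing and export, and YTHDC2 is an RNA helicase known mainly from germ cells. In macrophages the pathway is known for tuning the stability of mRNAs of inflammatory signalling.

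Recovered reads numbered 35019033 to 45636131 per library. Nsun2 measured 1.92 ± 0.11 FPKM in NC against 1.06 ± 0.26 FPKM in NSUN2-KO (SD, n = 3), that is, 55.4% of the NC level remained (log2 fold change -0.51, limma adjusted p = 0.0228). The log2 fold change was -0.82 and -0.19 with 0.1 and 5 FPKM added in place of 1, and -0.89 by limma voom. The call was lost with no filter on low values (adjusted p = 0.113) and without any 1 library except NSUN2-KO replicate 2, with adjusted p-values of 0.0534, 0.0845 and 0.0695 without NC replicates 1 to 3, and 0.0807 and 0.0536 without NSUN2-KO replicates 1 and 3. All 7 macrophage markers and all 6 M1 markers were above the filter. The macrophage markers summed to 3726 to 3813 FPKM per library in NC and 3116 to 3160 FPKM in NSUN2-KO (3 of 7 called lower), and the M1 markers to 2476 to 2535 and 2939 to 3086 FPKM (6 of 6 called higher). The summed level of 9 neutrophil markers was 98.0 to 105.9 FPKM in NC and 79.1 to 83.0 FPKM in NSUN2-KO (Elane at 0 throughout), and that of 7 dendritic cell markers was 6.13 to 7.49 and 9.33 to 10.4 FPKM. Of the markers above the filter, 3 of 5 for neutrophils were called lower and 1 of 3 for dendritic cells was called higher. Among all 9443 tested genes limma called 4.19% higher and 4.3% lower. The 6 T and NK cell markers summed to at most 0.0613 FPKM (Cd3e and Cd3g at 0) and the 4 B cell markers to at most 0.357 FPKM. On the Y chromosome, Uty, Kdm5d, Ddx3y and Eif2s3y had reads in each NC library and none in NSUN2-KO, and Xist measured 14.5 ± 0.88 FPKM in NC against 30.6 ± 1.20 FPKM in NSUN2-KO. Each NC library thus held both Xist and Y-linked reads, and whether it pooled animals of both sexes was not tested. The Y-linked, Xist and marker differences run with the groups, so sex and genotype cannot be told apart here. The part of these marker levels in the values below was not tested. All 10 m6A genes lie on autosomes.

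Differences in the mRNA levels of the m6A machinery between NSUN2-KO and NC macrophages were small. Of the 10 genes, 1 was higher (Alkbh5) and 0 were lower in NSUN2-KO by limma on log2(FPKM + 1) at an adjusted p below 0.05. At an unadjusted p below 0.05 there were 2, Alkbh5 and Ythdc1, against 25.5% of all tested genes. Over all 9443 tested genes 8.49% were called, 4.19% higher and 4.3% lower, so 1 of 10 is near the background. Limma voom on recovered reads called 2 of 10, both higher, against 14.5% of the same genes (7.48% higher and 7.03% lower), and 2 of 10 when run over the 13659 genes with a mean of at least 10 reads, against 9.77% (5.2% higher). With no filter on low values limma called 0 of 10, against 1.09% of 24414 genes (0.602% higher and 0.483% lower). The values of the groups lay apart in 2 of the 10 genes, again Alkbh5 and Ythdc1, against 31.1% of tested genes (14.4% higher in NSUN2-KO). The median log2 fold change of the 10 genes was 0.06, against -0.01 over all tested genes, and 7 of the 10 were positive. On the log2(FPKM + 1) scale the largest difference in either direction was 0.17, and the widest reach of the 95% intervals was -0.25 (Mettl3) and 0.34 (Ythdc2). By the plain ratio of mean FPKM, Ythdc2 differed most, at 118.2% of NC, followed by Ythdc1 at 115.5%. The added 1 FPKM shrinks the log2 fold changes of the low genes, and their intervals with them. Limma voom on reads gave -0.12 (SE 0.12) for Mettl3 and 0.10 (SE 0.096) for Mettl14. It gave -0.08 (SE 0.099) for Fto and 0.25 (SE 0.12) for Ythdc2, and none of these genes was called. In bulk RNA, a change in the share of cells that express a gene and a change in the RNA per cell cannot be told apart.

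**Figure D1:**
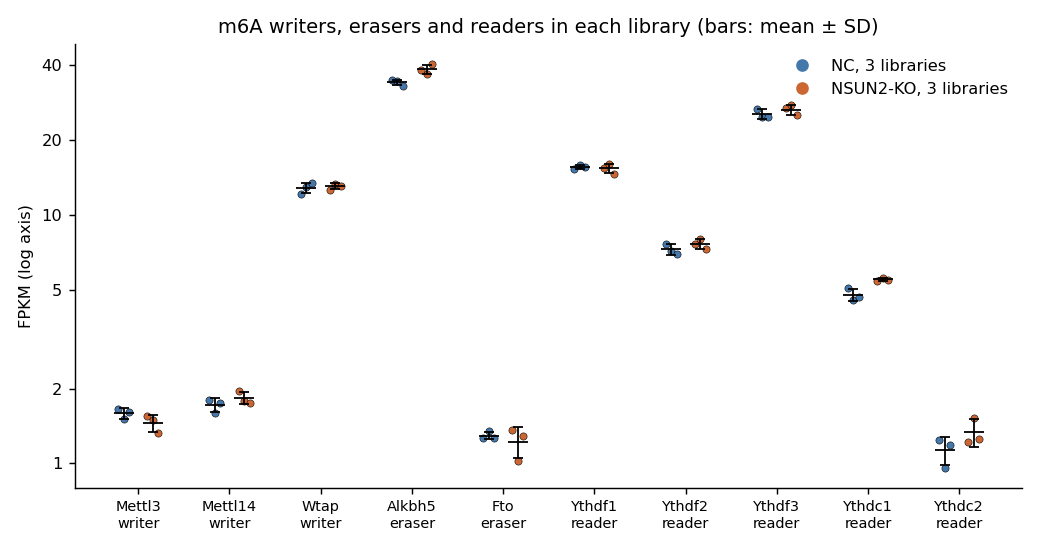
FPKM of each m6A gene on a log axis in the 3 NC libraries (blue) and the 3 NSUN2-KO libraries (orange), each point a library and each bar the mean ± SD. Alkbh5 was highest, at 33.0 to 40.3 FPKM, and the groups lie apart in Alkbh5 and Ythdc1 only.

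Promoter sequences are shown for Alkbh5 and Ythdc1, the genes whose groups lay apart, because ALKBH5 has been described as a target of the hypoxia factor HIF-1 in other cells. Each is the 250 bases before the RefSeq transcription start (GRCm38.p6, plus strand), read 5′ to 3′, with the core of the hypoxia response element in capitals. The core was searched as ACGTG and as GCGTG on both strands, so a match on the opposite strand appears as its reverse complement, and a CACGTG element would also contain a match.
Alkbh5 promoter, chr11:60537433-60537682: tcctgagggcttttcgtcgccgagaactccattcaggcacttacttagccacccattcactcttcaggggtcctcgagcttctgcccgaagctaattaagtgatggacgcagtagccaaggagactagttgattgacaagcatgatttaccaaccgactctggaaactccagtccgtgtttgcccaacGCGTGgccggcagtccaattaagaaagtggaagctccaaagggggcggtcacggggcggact
Ythdc1 promoter, chr5:86804016-86804265: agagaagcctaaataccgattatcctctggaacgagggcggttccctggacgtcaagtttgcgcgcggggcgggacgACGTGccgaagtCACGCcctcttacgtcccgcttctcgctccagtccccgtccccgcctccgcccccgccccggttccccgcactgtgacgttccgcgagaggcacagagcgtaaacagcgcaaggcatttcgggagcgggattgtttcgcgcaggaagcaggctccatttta

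The Alkbh5 window held 1 match, GCGTG on the plus strand, beginning 62 bases before the start, which itself lies 1302 bases inside the deposited gene. The Ythdc1 window held ACGTG 173 bases before the start and, on the opposite strand, GCGTG at 161 bases. Of the 7 m6A genes with an entry in the RefSeq promoter table, 6 held a match, among them Ythdf1, Ythdf2, Mettl3 and Wtap, which were not called. A match was also present in 38.6% of all 32851 promoter windows of that length. That share counts windows, whereas Wtap has 3 windows and was counted once, for a match in any of them. The Alkbh5 and Ythdc1 windows had a GC content of 54% and 63.2%, against a median of 52.4% over all windows. The GC content was 68.4% for Ythdf1, 64% for Ythdf2, 68% and 80% for Wtap, 50.4% for Mettl3 and 59.2% for Fto, which held no match. A match is a description of the letters and not of binding.

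The genes spanned a wide range of levels: the highest mean was 29.4 times the lowest. On the scale of the deposited FPKM, Alkbh5 was followed by Ythdf3, Ythdf1, Wtap, Ythdf2 and Ythdc1, and the 6-library ranges of neighbours in this order did not overlap. Below them came Mettl14, Mettl3, Fto and Ythdc2, whose neighbouring ranges did overlap. Mettl14 was above Mettl3 in each of 6 libraries, and Fto was above Ythdc2 in 5 of 6. Alkbh5 stood at the 87.7th percentile of the tested genes by mean level, Ythdf3 at the 82.9th, Mettl3 at the 10.1st and Ythdc2 at the 4.83rd.

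Part of that order depended on gene length. The deposited length of Ythdc1 was 13651 bases, whereas its longest protein-coding transcript in GENCODE M21 has 3269 bases. For Mettl3 the lengths were 5076 and 2025 bases, for Fto 13031 and 4707 bases and for Wtap 6248 and 3187 bases. Dividing the same reads by the transcript length, a check added after seeing the data, put Ythdc1 at 19.8 ± 1.10 in NC, the fourth highest, and Mettl3 at 3.98 ± 0.20, above Mettl14 at 1.77 ± 0.11 (FPKM, SD, n = 3). Wtap then took the third place, Ythdf1 went from the third to the fifth place and Ythdf2 from the fifth to the sixth. Alkbh5 and Ythdf3 stayed the highest pair, at 35.6 ± 0.94 and 26.7 ± 1.24 FPKM, and Ythdc2 stayed the lowest. Reads outside the transcript still enter these numbers, and shorter transcripts of a gene were not considered, so they are rough values. Plain ratios between the groups are free of length, whereas a difference on log2(FPKM + 1) shrinks more where a great length gives a low FPKM.

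Among the writers, the catalytic subunit Mettl3 (ENSMUSG00000022160, GRCm38 chromosome 14, 52294841 to 52305128, minus strand) measured 1.66, 1.5 and 1.61 FPKM in the NC libraries, in the order of their replicate numbers, and 1.54, 1.49 and 1.32 FPKM in the NSUN2-KO libraries, which is the order of all values below. The groups overlapped, with NC replicate 2 between NSUN2-KO replicates 1 and 2. The log2 fold change was -0.08 (95% interval -0.25 to 0.09, limma adjusted p = 0.548). Its 252 to 349 reads per library are uncertain at one end, because the last 1561 bases of Tox4 on the opposite strand overlap the locus and the labels do not give the strand setting of the counting. Tox4 measured 20.02 ± 0.36 FPKM in NC against 18.8 ± 0.44 FPKM in NSUN2-KO (log2 fold change -0.09, limma adjusted p = 0.186).

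Mettl14 (ENSMUSG00000028114, chromosome 3, 123368297 to 123386108, minus strand), the substrate-binding partner, measured 1.81, 1.6 and 1.75 FPKM in NC and 1.95, 1.79 and 1.75 FPKM in NSUN2-KO. NSUN2-KO replicate 1 was the highest library and NC replicate 2 the lowest, and the others were intermixed (log2 fold change 0.06, 95% interval -0.10 to 0.22, limma adjusted p = 0.650). Wtap (ENSMUSG00000060475, chromosome 17, 12966796 to 12994169, minus strand), the adaptor of the complex, measured 12.1, 12.9 and 13.4 FPKM in NC and 12.6, 13.3 and 13.1 FPKM in NSUN2-KO. Its NSUN2-KO values fell inside the NC range (log2 fold change 0.02, 95% interval -0.09 to 0.13, limma adjusted p = 0.830).

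Alkbh5 (ENSMUSG00000042650, chromosome 11, 60536381 to 60558512, plus strand), the demethylase gene whose promoter is printed above, measured 34.7, 34.4 and 33.0 FPKM in NC and 38.1, 36.9 and 40.3 FPKM in NSUN2-KO. Every NSUN2-KO library was above every NC library, by a narrow gap between NSUN2-KO replicate 2 and NC replicate 1. It rested on 7743 to 9435 reads per library. The mean rose from 34.1 ± 0.90 to 38.4 ± 1.74 FPKM (SD, n = 3), that is, to 112.8% of NC (log2 fold change 0.17, SE 0.04, 95% interval 0.07 to 0.27, limma adjusted p = 0.0483). The call was lost in each of the 6 fits that left out 1 library: the adjusted p was 0.0718, 0.108 and 0.166 without NC replicates 1, 2 and 3, and 0.130, 0.0507 and 0.103 without NSUN2-KO replicates 1, 2 and 3. It was also lost with no filter on low values (0.137), with no mean-variance trend (0.0981), after rescaling to TPM (0.102) and with the replicate number as a block (0.125), while limma voom on recovered reads gave 0.00831. The call held with other pseudocounts (0.0491 and 0.0478), a mean of at least 5 FPKM (0.0292) and median ratios (0.0440). In the 6 fits without 1 library the log2 fold change was 0.14 to 0.20, positive in each.

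Fto (ENSMUSG00000055932, chromosome 8, 91313525 to 91668439, plus strand), the other demethylase, measured 1.27, 1.34 and 1.27 FPKM in NC and 1.36, 1.02 and 1.29 FPKM in NSUN2-KO. The highest and the lowest library were both NSUN2-KO (log2 fold change -0.05, 95% interval -0.24 to 0.15, limma adjusted p = 0.770). Its locus holds 8 other annotated genes, none above 0.328 FPKM in any library.

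**Figure D2:**
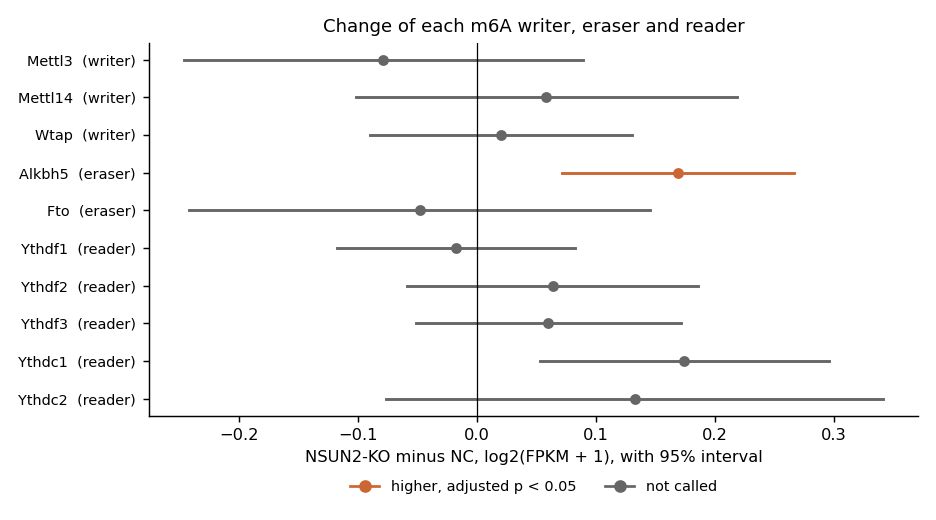
Difference of NSUN2-KO minus NC on the log2(FPKM + 1) scale for each m6A gene, with the 95% interval of the limma fit over 6 libraries. Alkbh5, in orange, is the one gene called at an adjusted p below 0.05, and the interval of Ythdc1 also lies above 0 although its adjusted p was 0.0846.

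The cytoplasmic readers showed little difference. Ythdf1 (ENSMUSG00000038848, chromosome 2, 180904377 to 180920949, minus strand) measured 15.3, 15.8 and 15.6 FPKM in NC and 15.4, 16.01 and 14.6 FPKM in NSUN2-KO, with both the highest and the lowest library in NSUN2-KO. Its interval was the narrowest among the readers, -0.12 to 0.08 around a log2 fold change of -0.02 (limma adjusted p = 0.843), which is -7.83% to 5.90% on the FPKM + 1 scale. Ythdf2 (ENSMUSG00000040025, chromosome 4, 132184912 to 132212303, minus strand), the reader that brings the CCR4-NOT deadenylase to marked mRNA, measured 7.66, 7.13 and 6.98 FPKM in NC and 7.66, 7.96 and 7.27 FPKM in NSUN2-KO. NC replicate 1 lay among the NSUN2-KO values, and the log2 fold change was 0.06 (95% interval -0.06 to 0.19, limma adjusted p = 0.502).

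Ythdf3 (ENSMUSG00000047213, chromosome 3, 16183212 to 16217037, plus strand) measured 26.7, 24.7 and 24.7 FPKM in NC and 26.7, 27.5 and 25.2 FPKM in NSUN2-KO. Here too NC replicate 1 lay among the NSUN2-KO libraries (log2 fold change 0.06, 95% interval -0.05 to 0.17, limma adjusted p = 0.487). Ythdf3 made up 52.6 ± 1.05% of the summed FPKM of the YTHDF genes in NC and 53.5 ± 0.12% in NSUN2-KO. Ythdf1 made up 32.3 ± 1.35% and 31.0 ± 0.082%, and Ythdf2 15.1 ± 0.33% and 15.4 ± 0.040% (SD, n = 3). The order Ythdf3, Ythdf1, Ythdf2 was the same in both groups.

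Ythdc1 (ENSMUSG00000035851, chromosome 5, 86804221 to 86836659, plus strand), the nuclear reader, measured 5.05, 4.56 and 4.65 FPKM in NC and 5.39, 5.59 and 5.49 FPKM in NSUN2-KO. All NSUN2-KO libraries were above all NC libraries, but the difference did not pass the adjusted threshold. The means were 4.75 ± 0.26 and 5.49 ± 0.10 FPKM (SD, n = 3), the log2 fold change was 0.17 (SE 0.05, 95% interval 0.05 to 0.30) and the limma adjusted p was 0.0846. Limma voom on recovered reads called it higher (log2 fold change 0.21, adjusted p = 0.00897).

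Base composition and gene length were set beside this value. Over 9433 tested genes the Spearman correlation between GC content and log2 fold change was -0.37, a description across genes that share the 6 libraries. Ythdc1 had the greatest deposited length, and Ythdc1 and Ythdc2 had the lowest GC content of the m6A genes, 40.9% and 39.5%, and Alkbh5 the highest, 52.1%. After a loess trend on GC content and gene length had been subtracted in each library, the log2 fold change of Ythdc1 was 0.10 (limma adjusted p = 0.198), that of Ythdc2 was 0.06, that of Ythdf3 was 0.01 and that of Alkbh5 was 0.19 (adjusted p = 0.0187). Both trends were subtracted together, so their parts cannot be told apart.

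Ythdc2 (ENSMUSG00000034653, chromosome 18, 44827746 to 44889724, plus strand), the helicase reader, measured 1.24, 0.962 and 1.19 FPKM in NC and 1.22, 1.53 and 1.26 FPKM in NSUN2-KO. The groups overlapped, with NC replicate 2 the lowest and NSUN2-KO replicate 2 the highest library (log2 fold change 0.13, 95% interval -0.08 to 0.34, limma adjusted p = 0.409). The log2 fold change was 0.22 with 0.1 in place of 1 FPKM added, and 0.25 by limma voom (adjusted p = 0.181). It had the least precise NC level of the m6A genes, with a coefficient of variation of 13.0% in NC, against 1.77% for Ythdf1.

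**Figure D3:**
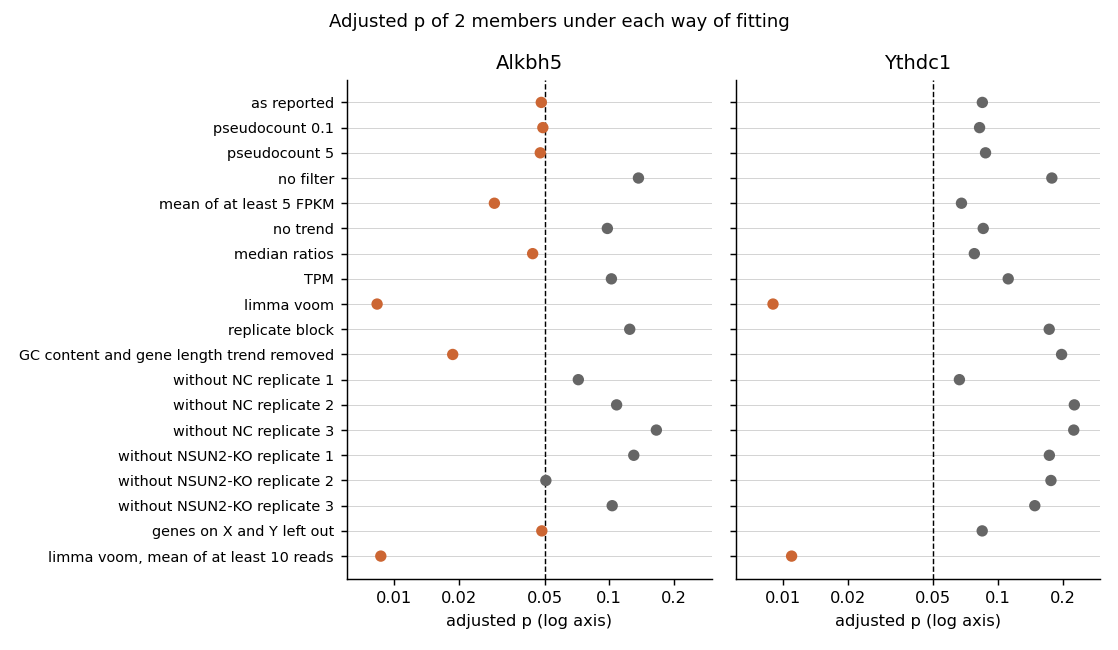
Adjusted p of Alkbh5 and Ythdc1 (log axis) under the reported fit and each other way of fitting, with the threshold of 0.05 as a dashed line and called values in orange. Alkbh5 lies at 0.0483 in the reported fit and crosses the line in each fit without 1 library, and Ythdc1 is called by the limma voom fits only.

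Ratios between genes of the same library do not depend on scaling between libraries, and 6 such ratios of FPKM were compared. Mettl3 over Mettl14 was 0.917, 0.941 and 0.921 in NC and 0.794, 0.836 and 0.753 in NSUN2-KO, so every NSUN2-KO library was below every NC library. The means were 0.926 ± 0.013 and 0.794 ± 0.041 (SD, n = 3, exact two-sided permutation p = 0.1, the smallest that 3 against 3 libraries allow, and 0.3 after adjustment over the 6 ratios). The Mettl3 reads in this ratio are uncertain where the locus overlaps Tox4, whose groups also lay apart, lower in NSUN2-KO. Alkbh5 over Fto was 27.4, 25.6 and 26.1 in NC and 28.1, 36.0 and 31.4 in NSUN2-KO. Its groups also lay apart (exact permutation p = 0.1, adjusted 0.3), with NSUN2-KO replicate 2, the library lowest in Fto, the highest. The groups lay apart in 31.1% of single tested genes, and the share among all gene pairs was not measured.

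The other 4 ratios overlapped between the groups. Ythdf2 over Ythdf3 was 0.286 ± 0.0029 in NC and 0.288 ± 0.0014 in NSUN2-KO (exact permutation p = 0.4, n = 3 each). Ythdf2 over Ythdf1 was 0.467 ± 0.030 and 0.497 ± 0.00026, Wtap over Mettl3 was 8.08 ± 0.66 and 8.998 ± 0.87, and Ythdc1 over Ythdc2 was 4.25 ± 0.43 and 4.15 ± 0.43 (SD, n = 3). With so few libraries none of the 6 ratios could reach a p below 0.05.

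**Figure D4:**
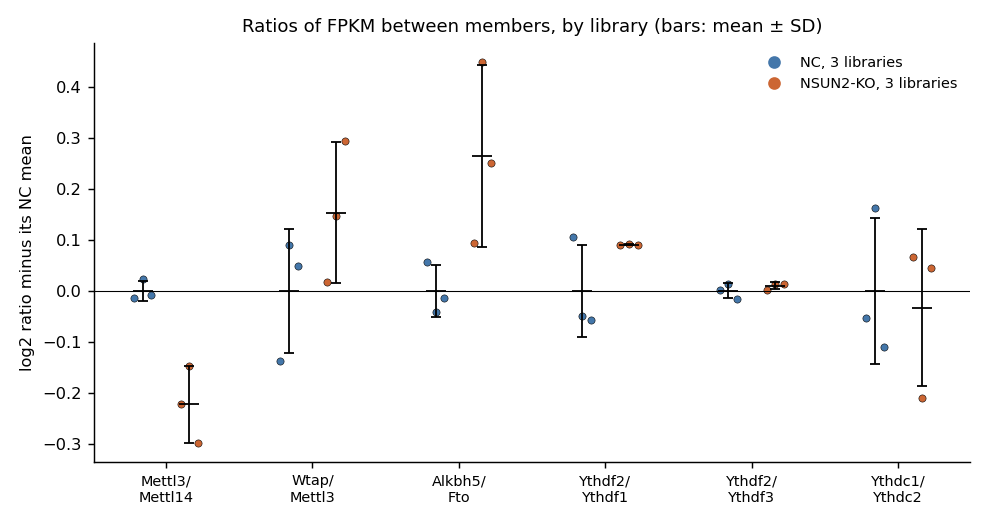
Log2 ratio of FPKM between pairs of m6A genes in each library, set to the NC mean of that pair, with NC in blue, NSUN2-KO in orange and bars for the mean ± SD. Mettl3 over Mettl14 lies lower and Alkbh5 over Fto higher in the 3 NSUN2-KO libraries, whereas Ythdf2 over Ythdf3 stays near 0 in all libraries.

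By the Pearson correlation of log2(FPKM + 1) over the 6 libraries, the genes most like Alkbh5, the m6A gene with the smallest p, were Tshz1 (0.99), Gm5970 (0.98) and Hk1 (0.98). Hk1, which encodes hexokinase 1, measured 43.9, 45.8 and 42.9 FPKM in NC and 55.6, 52.1 and 61.0 FPKM in NSUN2-KO. Like Alkbh5 it was highest in NSUN2-KO replicate 3. With 6 libraries in 2 groups such a value is easily reached, and 68 tested genes exceeded 0.95.

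Of 46 genes in 6 lists of partners, other methyltransferases, further readers, effectors, the methyl donor cycle and reported m6A-regulated mRNAs, 41 were tested, 3 were higher and 0 were lower in NSUN2-KO (7.32% called, against 8.49% of all tested genes). At an unadjusted p below 0.05 there were 11 of 41, near the 25.5% of all tested genes. Limma voom called 6 of 41 higher and 1 lower, against 7.48% and 7.03% of all tested genes (14.5% in either direction). The groups lay apart in 17 of 41, against 31.1% of all tested genes. The genes Igf2bp1, Igf2bp3, Mettl16, Ahcy and Rida were below the filter. The median log2 fold change was 0.05.

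Of 5 partners of the METTL3 complex, 0 passed the limma test (8.49% of all tested genes) and limma voom called 0 (14.5% of all). An unadjusted p below 0.05 was found for 0 (25.5% of all), and the groups lay apart in 2, Rbm15 and Zc3h13 (31.1% of all). The scaffold Virma measured 12.1 ± 0.39 FPKM in NC against 12.0 ± 0.41 FPKM in NSUN2-KO (log2 fold change -0.01, which turned to 0.0011 with median ratios and 0.0029 with TPM). The RNA-binding adaptor Rbm15 measured 3.92 ± 0.17 and 4.40 ± 0.27 FPKM (limma adjusted p = 0.211), and Zc3h13, which anchors the complex in the nucleus, 8.40 ± 0.25 and 9.04 ± 0.40 FPKM (adjusted p = 0.267). Rbm15b, a paralog of Rbm15, measured 2.98 ± 0.053 and 2.78 ± 0.18 FPKM.

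Of 4 tested genes for other methyltransferases and their activator, 0 passed the limma test (8.49% of all tested genes). An unadjusted p below 0.05 was found for 1, Pcif1 (25.5% of all tested genes), and its groups also lay apart (31.1% of all). Pcif1, which encodes the enzyme that methylates the adenosine beside the mRNA cap, measured 4.66 ± 0.070 FPKM in NC against 3.88 ± 0.51 FPKM in NSUN2-KO (log2 fold change -0.22, limma adjusted p = 0.122). It was called lower in 3 of 17 other fits. These were limma voom (adjusted p = 0.0277), limma voom over genes with a mean of at least 10 reads (0.0326), and limma without NSUN2-KO replicate 3 (0.0298). Limma voom called 7.03% of all tested genes lower. With the GC content and length trend removed the limma adjusted p was 0.206. The ribosomal RNA methyltransferase genes Mettl5 and Zcchc4 and the activator gene Trmt112 had log2 fold changes of 0.06, 0.05 and 0.10. Mettl16, which methylates U6 RNA and Mat2a mRNA, was below the filter at 0.363 ± 0.027 FPKM in NC against 0.476 ± 0.017 FPKM in NSUN2-KO.

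Of 7 tested readers without a YTH domain, 0 passed the limma test (8.49% of all tested genes). An unadjusted p below 0.05 was found for 2, Igf2bp2 and Fmr1 (25.5% of all tested genes), and the groups lay apart in the same 2 (31.1% of all). Limma voom also called these 2, both higher (7.48% of all called higher, 14.5% in either direction). Igf2bp2, a reader that stabilizes its targets, missed narrowly at 37.9 ± 1.20 FPKM in NC against 41.7 ± 0.18 FPKM in NSUN2-KO (log2 fold change 0.14, limma adjusted p = 0.0504), and limma voom called it (adjusted p = 0.0149). The X-linked reader gene Fmr1 measured 5.73 ± 0.56 and 6.60 ± 0.11 FPKM (adjusted p = 0.140), the X-linked Rbmx 2.80 ± 0.084 and 3.00 ± 0.12 FPKM, and Prrc2a 38.8 ± 1.70 and 36.2 ± 2.93 FPKM. With the GC content and length trend removed, the limma adjusted p was 0.0326 for Igf2bp2 and 0.236 for Fmr1.

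Igf2bp3, a paralog of Igf2bp2 best known from embryonic and tumour cells, was below the filter and is described because of its values, which were known when it was picked. It had 135, 145 and 148 reads in NC and 52, 58 and 58 reads in NSUN2-KO, so the groups were far apart at a low level. Its level was 0.426 ± 0.038 FPKM in NC against 0.183 ± 0.023 FPKM in NSUN2-KO, or 43.0% of NC. Limma voom over the 13659 genes with a mean of at least 10 reads, added after seeing the data, gave a log2 fold change of -1.21 (SE 0.23, adjusted p = 0.000926) and called 4.57% of genes lower. On log2(FPKM + 1) with no filter the log2 fold change was -0.27 (limma adjusted p = 0.0641).

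Among 15 tested effectors that the readers recruit, 2 rose and 0 fell by limma (13.3% called, against 8.49% of all tested genes). The unadjusted p was below 0.05 for 6 (25.5% of all), the groups lay apart in 8 (31.1% of all) and limma voom called 3 (14.5% of all). Cnot7, a catalytic subunit of the CCR4-NOT deadenylase, measured 5.81, 5.09 and 4.94 FPKM in NC and 6.85, 7.03 and 6.38 FPKM in NSUN2-KO (limma adjusted p = 0.0301, log2 fold change 0.31 ± 0.07 SE). Its call was lost without NC replicates 2 or 3 (adjusted p = 0.0995 and 0.103) or NSUN2-KO replicates 1 or 2 (0.101 and 0.0877), as well as with no filter (0.117) and with the replicate block (0.0562). Srsf3, a splicing factor that works with YTHDC1, measured 9.83, 8.51 and 9.64 FPKM in NC and 11.3, 11.7 and 11.1 FPKM in NSUN2-KO, again with the groups apart (limma adjusted p = 0.0321, log2 fold change 0.26 ± 0.06 SE). That call held without NC replicate 1 and was lost without NC replicate 2 (adjusted p = 0.0719), NC replicate 3 (0.0752) or NSUN2-KO replicates 1 (0.0996), 2 (0.0907) or 3 (0.0604), with no filter (0.117), with no trend (0.0568) and with the block (0.0859).

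Other deadenylase genes did not pass. Cnot6, another catalytic subunit, measured 13.9 ± 0.83 FPKM in NC against 16.1 ± 0.49 FPKM in NSUN2-KO (limma adjusted p = 0.0518, and 0.00564 by limma voom). Cnot9, a further subunit of the same complex, measured 13.7 ± 0.34 and 12.3 ± 0.64 FPKM, a log2 fold change of -0.14 (adjusted p = 0.114).

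Of 4 tested genes of the S-adenosylmethionine cycle, which supplies the methyl group, 0 passed the limma test (8.49% of all tested genes). Limma voom called 0 (14.5% of all) and 0 had an unadjusted p below 0.05 (25.5% of all). The groups lay apart in 1, Ahcyl2 (31.1% of all). Mat2a, the synthetase, measured 3.00 ± 0.14 FPKM in NC against 2.93 ± 0.24 FPKM in NSUN2-KO, and its regulatory subunit Mat2b 10.2 ± 0.30 and 10.9 ± 0.51 FPKM. Ahcyl1 and Ahcyl2, relatives of the hydrolase that clears the spent donor, had log2 fold changes of -0.06 each.

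Of 6 mRNAs reported as m6A-regulated in macrophages, 1 rose by limma, against 4.19% of all tested genes called higher and 8.49% called. The unadjusted p was below 0.05 for 2 (25.5% of all), the groups lay apart in 3 (31.1% of all) and limma voom called 1 (14.5% of all). Irak3, an inhibitor of Toll-like receptor signalling, measured 22.7, 23.2 and 23.0 FPKM in NC and 27.4, 26.9 and 27.4 FPKM in NSUN2-KO, with tight groups far apart. Its log2 fold change was 0.24 (SE 0.03, limma adjusted p = 0.00576), and it was called in each of the 18 other fits. Spred2, an inhibitor of ERK signalling, measured 9.71 ± 0.30 and 10.9 ± 0.48 FPKM (adjusted p = 0.0921). The kinase genes Map4k4 and Map2k4 had log2 fold changes of 0.07 and 0.06. No m6A was measured in these libraries, so the mark on any of these mRNAs is unknown here.

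**Figure D5:**
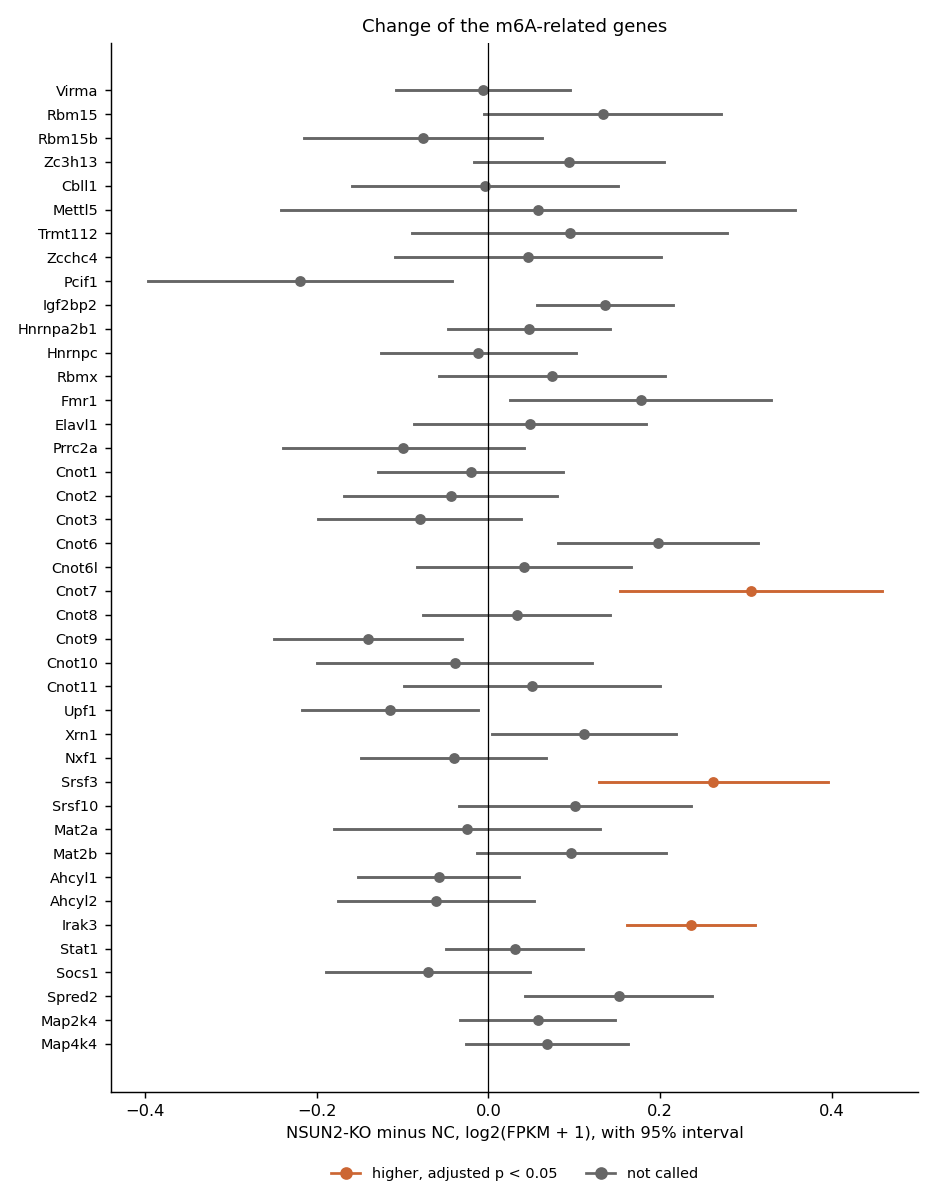
Difference of NSUN2-KO minus NC on the log2(FPKM + 1) scale, with the 95% limma interval, for the 41 tested genes around the m6A machinery, in the order of the lists. Cnot7, Srsf3 and Irak3, in orange, were called higher and no gene was called lower.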

How the data were processed

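The deposited table held FPKM values for 6 libraries and the gene length used by the authors. The submitters' processing notes list HISAT2 2.0.5 as well as fastp and CASAVA 1.8. They also list featureCounts 1.5.0-p3, the build GRCm38 and, as a tool of the authors, DESeq2 1.20.0. No label gives settings or an annotation release. FPKM times gene length came in whole steps within 0.01 reads, from which reads were recovered. The limma test (version 3.58.1 in R 4.3.3) took every gene averaging 1 FPKM or more. It used log2(FPKM + 1) and no covariate, a trended prior variance, and Benjamini-Hochberg adjustment over all tested genes. The added 1 FPKM understates changes of low genes. Genes and lists were chosen with earlier results of these data known. Named were Nsun2, the 10 m6A genes and up to 4 tested genes of each related list by smallest p. Columns of unassigned samples numbered 0. No libraries were duplicates: replicates of a group differed by a chi-square of 5.67 to 11.6 per gene. Alternatives were other pseudocounts, filters, scalings, no trend, voom, a replicate block, removal of GC content and length trends (loess span 0.5; GENCODE M21 transcripts) and leaving out each library. Leaving out X and Y genes and voom on genes with a mean of at least 10 reads were added after seeing the data. The fits were tested on simulated data. Python 3.11.15, pandas 2.3.3, scipy 1.17.1 and matplotlib 3.10.9 were used. Deposited positions of the 10 genes equalled those of GENCODE M21.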

Additional observations from a re-analysis of the deposited data

How the results depend on the processing

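The count of higher m6A genes was 1 as reported and 0 with no filter, no trend, TPM or the replicate block, 2 with limma voom on either gene set, and 0 to 0 in the 6 fits without 1 library. No fit called an m6A gene lower. Related genes called higher numbered 3 as reported, 1 with no filter or the replicate block, 5 with a mean of at least 5 FPKM or median ratios, 6 with either voom fit and 1 to 4 without 1 library. Related genes called lower numbered 1 with voom, 2 with voom on genes of at least 10 reads and 0 to 1 without 1 library. All changed genes, beside which these counts are to be read, numbered 802 of 9443 as reported. They numbered 863 of 5410 with a mean of at least 5 FPKM, 799 of 9443 with median ratios and 586 of 12088 with TPM. With no filter there were 265 of 24414, and with voom 1370 of 9443 and 1334 of 13659. There were 526 with no trend, 351 with the replicate block and 276 to 596 without 1 library. Same-numbered libraries of the groups did not deviate together (correlations -0.0095, -0.030 and 0.0034). The labels do not say whether such libraries share more than a number, and this check over 3 pairs cannot tell. The replicate block ended the calls of Alkbh5, Cnot7 and Srsf3, and 0 of 6 libraries correlated best with their own number in the other group. Nsun2 had a log2 fold change of -0.89 with voom, -0.82 and -0.19 with pseudocounts of 0.1 and 5 FPKM, -0.51 with no filter, where the limma adjusted p was 0.113, and of -0.61 to -0.44 without 1 library (adjusted p 0.0120 to 0.0845, called in 1 of 6). Signs reversed only for genes near 0 and not called. With the GC content and length trend removed Wtap was at -0.027, Ythdf1 at 0.0012 and Mettl5 at -0.010, and Virma was at 0.0011 with median ratios and 0.0029 with TPM. Without 1 library the log2 fold change ranged from -0.015 to 0.052 for Wtap, -0.092 to 0.018 for Fto, -0.046 to 0.014 for Ythdf1, -0.030 to 0.015 for Virma, -0.045 to 0.21 for Mettl5 and -0.070 to 0.020 for Mat2a. The cause of these changes was not tested. Mettl3, Ythdc2 and Mettl14 rested on few reads, 252 to 580 per library, and Fto on 468 to 802. How far depth set their spread was not tested.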
